A study of Homo sapiens with 6 samples.

Results

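The 10 genes described here encode factors of nucleotide excision repair: *XPC*, *DDB1*, *DDB2*, *ERCC6*, *ERCC2*, *ERCC3*, *XPA*, *ERCC1*, *ERCC4* and *ERCC5*. They were chosen by name for their place in the pathway, with earlier results of these data known. The Ensembl identifiers of all 10 were found among the 58336 genes of the count table. A2780, a human ovarian cancer cell line, was treated with the DMSO vehicle or with 6 µM TH588 for 48 h, and RNA was sequenced from 3 independent experiments per treatment, called replicates A, B and C. Where values of 3 libraries follow each other, they stand in that order. TH588 is a first-generation inhibitor of MTH1, an enzyme that removes oxidized nucleotides such as 8-oxo-dGTP from the pool from which DNA is made. The authors class it as a mitotic MTH1 inhibitor, a kind that also arrests cancer cells in mitosis. A single line, dose and time were compared, so each value below is an RNA level of a whole culture, in which fewer cells that carry a transcript and less of that transcript per cell cannot be told apart.

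Nucleotide excision repair removes bulky lesions, such as those left by ultraviolet light or platinum drugs, by cutting out a short stretch of the damaged strand. Damage is found either anywhere in the genome, by XPC and the DDB1-DDB2 complex, or at stalled RNA polymerase, by ERCC6 (CSB) and ERCC8 (CSA). The helicases ERCC3 and ERCC2 of the TFIIH complex then open the helix, XPA and RPA check the lesion, ERCC1-ERCC4 and ERCC5 cut the strand on either side, and replication polymerases and a ligase close the gap. *DDB2* and *XPC* are established target genes of p53.

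Counts were scaled with TMM, a normalization that equalizes the bulk of genes between libraries, and are given as CPM, the counts a gene would have in a library scaled to a common total. The libraries held 28537837 to 99074175 counts, TH588 replicate A being the shallowest. The small nucleolar RNA *SNORD3A* took 7.68%, 10.59% and 9.88% of the counts with DMSO and 21.94%, 11.2% and 12.95% with TH588. Its share was higher in every TH588 library than in any DMSO library, by far the most in the shallow TH588 replicate A. The cause was not tested. With the 10 most abundant genes left out, the same number of excision repair genes, 6 of 10, passed the test described below. Of 8 markers of epithelial or ovarian identity, 5, among them *PAX8*, *CDH1* and *KRT19*, were under 0.2 CPM in every library. The list's summed level was 3.82 to 4.6 CPM with DMSO and 10.9 to 12.2 CPM with TH588, carried by *KRT18* and *EPCAM*. The summed level of 3 fibroblast markers was 1580 to 1910 CPM with DMSO and 1870 to 2610 CPM with TH588, nearly all of it *COL3A1*, while 3 leukocyte and 3 endothelial markers were each under 0.2 CPM in every library. The part of these shifts in the results below was not tested.

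After TH588, 4 of the 10 genes rose and 2 fell, by edgeR's quasi-likelihood test with a threshold of 0.05 on the adjusted p. Fold changes are TH588 over DMSO on the log2 scale, with the standard error (SE) of the fit. Both p53 targets that find damage across the genome rose most, *DDB2* by 3.74-fold and *XPC* by 2.67-fold. *ERCC1* and *ERCC6* rose by 1.88-fold and 1.63-fold. *DDB1* and *ERCC3* fell slightly, and *ERCC2*, *XPA*, *ERCC4* and *ERCC5* did not pass the test. Change was common in these libraries: 49.6% of the 15844 genes tested were called, 24.2% as higher and 25.3% as lower, so 6 of 10 called is near the background. The groups of 3 did not overlap in 7 of the 10 genes, against 57.7% of all genes tested. The median log2 fold change of the 10 was 0.31, against 0.02 for all genes tested.

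**Figure D1:**
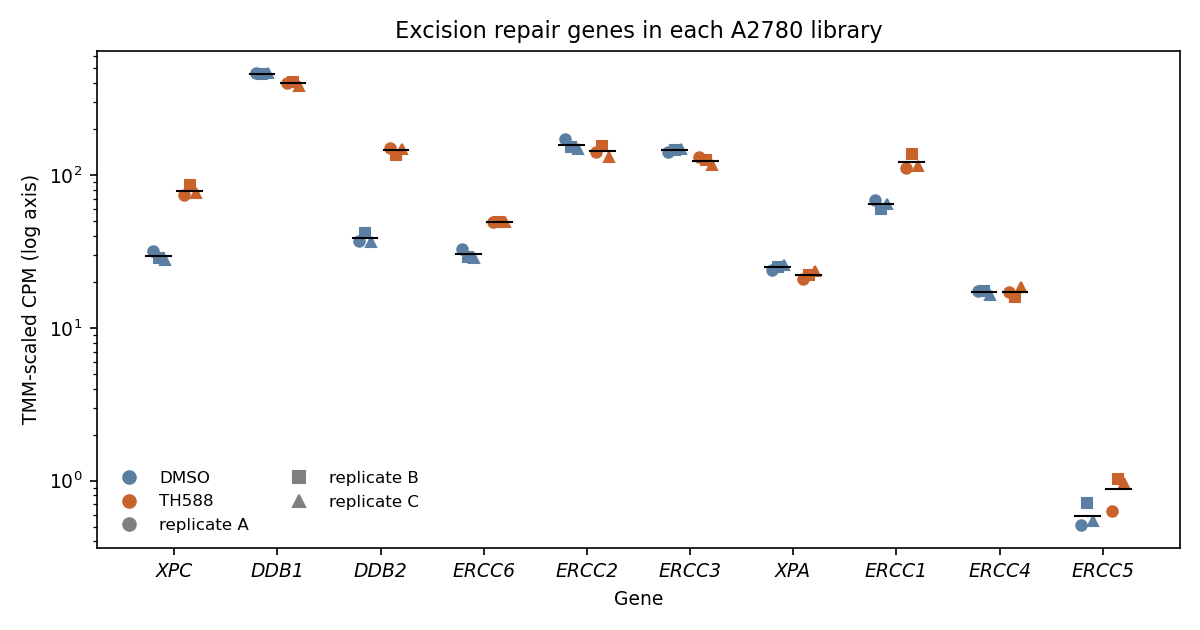
TMM-scaled CPM of the 10 genes (log axis) in each of the 6 libraries, DMSO in blue and TH588 in orange, with a marker shape per replicate and a black line at the mean of 3. *XPC*, *DDB2*, *ERCC6* and *ERCC1* lay higher in every TH588 library than in any DMSO library, while *ERCC2*, *ERCC4* and *ERCC5* overlapped.

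*DDB2* (ENSG00000134574, chromosome 11 of GRCh38, 47214465 to 47239240) encodes the subunit that binds ultraviolet photoproducts. It was measured at 37.3, 42.0 and 36.6 CPM with DMSO and, with TH588, at 151, 135 and 148 CPM. The lowest TH588 library was far above the highest DMSO library. The mean rose from 38.6 ± 2.95 to 145 ± 8.23 CPM (SD, n = 3 each), or 1.90 on the log2 scale (SE 0.09, edgeR adjusted p = 2.21e-08). It ranked 488th of the 15844 genes tested by log2 fold change. Its estimate lay between 1.88 and 2.00 under all 15 alternative settings, and none of its exon bases was shared with another gene of the table.

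The start of *DDB2* is shown because it was the only one of the 10 whose promoter windows held an exact match to the half-site pattern of p53. A p53 half-site is 3 purines, C, 2 bases that are A or T, G and 3 pyrimidines, a pattern that is its own reverse complement, so both strands were covered. Windows of 300 bases, 250 before and 50 after each start in RefSeq (GRCh38.p14), were searched, of which the 10 genes had 14. At least 1 half-site was found in 6.63% of 35116 windows of all genes, and 2 half-sites at most 13 bases apart in 10 windows (0.0285%), that of *DDB2* among them. In *DDB2* the pair lay 1 base apart, beginning at base 6 of the transcript, in the first exon and 5′ UTR of the canonical transcript and within an intron of other transcripts that start further upstream. The 30 bases below run from chr11:47214974-47215003 on the plus strand, with both half-sites in capitals.
DDB2: ggtttGAACAAGCCCtGGGCATGTTTggcg

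With up to 1 mismatch, 8 of the 10 genes held a half-site in at least 1 of their windows. Of all windows, 63.7% held one, so such matches are common. Some genes have more than 1 window, so the share of genes and the share of windows are unlike measures. For the other genes that rose, the match nearest a start, with its 10 bases in capitals and the 10 bases on each side, is given on the gene's own minus strand for comparison. The stretch of *XPC* is at chr3:14178570-14178599, that of *ERCC6* at chr10:49539549-49539578 and that of *ERCC1* at chr19:45423661-45423690. Counted from the start, the matches lie at position 13 in *XPC*, -30 in *ERCC6* and -152 in *ERCC1*. Each differs from the half-site at 1 base. These are matches of letters, and binding of p53 was not measured in these libraries.
XPC: tcgcgaagtgGAATTTGCCCagacaagcaa
ERCC6: gtacacatgtAAGCAGGCTCtgtaggcact
ERCC1: gggcgtccagATGCTAGCCTcgggggccgg

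*XPC* (ENSG00000154767, chromosome 3, 14145147 to 14178783) encodes the protein that senses helix distortion and recruits TFIIH. Its levels were 32.0, 28.8 and 27.9 CPM with DMSO and, with TH588, 74.1, 86.1 and 76.3 CPM. Every TH588 library was above every DMSO library. The mean rose from 29.6 ± 2.18 to 78.8 ± 6.39 CPM (SD, n = 3 each), or 1.42 on the log2 scale (SE 0.09, edgeR adjusted p = 2.22e-07). Exons on the opposite strand cover 30.4% of its exon bases, and the library kit is not one that marks strand. Of these neighbours, *XPC-AS1* was at 0.331 to 0.448 CPM with TH588, and *LSM3*, which shares 6.6% of the bases, fell (log2 fold change -0.70, edgeR adjusted p = 6.93e-05). The part of this overlap in the *XPC* values was not tested.

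*DDB1* (ENSG00000167986, chromosome 11, 61299451 to 61342596), the adaptor that joins DDB2 to the CUL4 ubiquitin ligase, had the most CPM of the 10 in every library. It was at 462, 458 and 463 CPM with DMSO and, with TH588, at 402, 408 and 382 CPM. The groups did not overlap, but the difference was small. Means of 3 were 461 ± 2.91 and 398 ± 13.4 CPM (SD), and the log2 fold change was -0.21 (SE 0.07, edgeR adjusted p = 0.0288). The call was lost with library size as the only scaling (-0.11, adjusted p = 0.354) and without any of DMSO replicates A, B and C or TH588 replicate C (lowest -0.22, highest -0.17). With the replicate letter as a block it was also lost (-0.21, adjusted p = 0.0889).

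*ERCC6* (ENSG00000225830, chromosome 10, 49455368 to 49539538) encodes CSB, the remodeler that recognizes stalled RNA polymerase. It was measured at 33.0, 29.2 and 28.8 CPM with DMSO and, with TH588, at 49.1, 49.3 and 49.5 CPM. The TH588 libraries agreed closely and all lay above the DMSO libraries. The mean rose from 30.3 ± 2.30 to 49.3 ± 0.221 CPM (SD, n = 3 each), or 0.70 on the log2 scale (SE 0.08, edgeR adjusted p = 2.31e-05).

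The helicases of TFIIH changed little. *ERCC3* (ENSG00000163161, chromosome 2, 127257290 to 127294176), which encodes XPB, was at 141, 146 and 147 CPM with DMSO and, with TH588, at 131, 126 and 116 CPM. All TH588 libraries lay below the DMSO libraries, and its log2 fold change was -0.22 (SE 0.08, edgeR adjusted p = 0.0325). As with *DDB1*, this call was lost with library size as the only scaling (-0.12, adjusted p = 0.303) and with the replicate block (-0.22, adjusted p = 0.0859). It was also lost without each single library other than TH588 replicate A (lowest -0.23, highest -0.15). *ERCC2* (ENSG00000104884, chromosome 19, 45349837 to 45370918), which encodes XPD, was at 172, 153 and 148 CPM with DMSO and, with TH588, at 142, 154 and 132 CPM. Its groups overlapped, and its log2 fold change of -0.14 (SE 0.09) did not pass the test (edgeR adjusted p = 0.212).

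*XPA* (ENSG00000136936, chromosome 9, 97674909 to 97697357), the scaffold that holds the opened lesion with RPA, was at 24.0, 25.0 and 25.6 CPM with DMSO. With TH588 it was at 21.0, 22.3 and 23.6 CPM. The groups did not overlap, but they lay close together, and the log2 fold change of -0.16 (SE 0.09) did not pass the test (edgeR adjusted p = 0.166). No alternative setting brought it past the threshold, the lowest adjusted p being 0.163.

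Of the 3 nuclease genes, 1 passed the test, against 49.6% of all genes tested. *ERCC1* (ENSG00000012061, chromosome 19, 45407333 to 45478828), the non-catalytic partner in the nuclease that cuts 5′ of the lesion, was at 68.4, 60.2 and 64.6 CPM with DMSO and, with TH588, at 111, 138 and 114 CPM. Every TH588 library exceeded every DMSO library. The mean rose from 64.4 ± 4.09 to 121 ± 15.1 CPM (SD, n = 3 each), or 0.91 on the log2 scale (SE 0.10, edgeR adjusted p = 1.09e-05). *POLR1G*, on the opposite strand, shares 28.6% of the exon bases of *ERCC1*. It was at 4.95 to 5.79 CPM with DMSO and at 1.76 to 2.76 CPM with TH588 (log2 fold change -1.26, edgeR adjusted p = 6.92e-05). How reads in shared exons were counted is not stated, and the part of this overlap in the *ERCC1* values was not tested.

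*ERCC4* (ENSG00000175595, chromosome 16, 13920157 to 13952345) encodes XPF, the catalytic subunit of that same nuclease. It was at 17.3, 17.5 and 16.5 CPM with DMSO and, with TH588, at 17.1, 16.0 and 18.6 CPM. The groups overlapped, and the log2 fold change was 0.01 (SE 0.10, edgeR adjusted p = 0.927). *ERCC5* (ENSG00000134899, chromosome 13, 102807146 to 102876001), which encodes XPG, the nuclease that cuts 3′ of the lesion, had only 42, 59 and 51 counts with DMSO and 17, 112 and 81 counts with TH588. Its mean, 0.590 ± 0.109 CPM in the DMSO group against 0.878 ± 0.213 CPM after TH588 (SD, n = 3 each), is uncertain, because 63.2% of its exon bases also belong to the readthrough gene *BIVM-ERCC5*, which had 0 counts in every library. How reads in such shared exons were counted is not stated. The 0 counts of *BIVM-ERCC5* mean that reads in the shared bases were not counted for both genes. *ERCC5* may thus have been counted over only part of its exon bases, so its level may be too low. The log2 estimate was 0.62 (SE 0.29, edgeR adjusted p = 0.0994), and it passed the threshold only without TH588 replicate A (0.77, adjusted p = 0.0494).

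**Figure D2:**
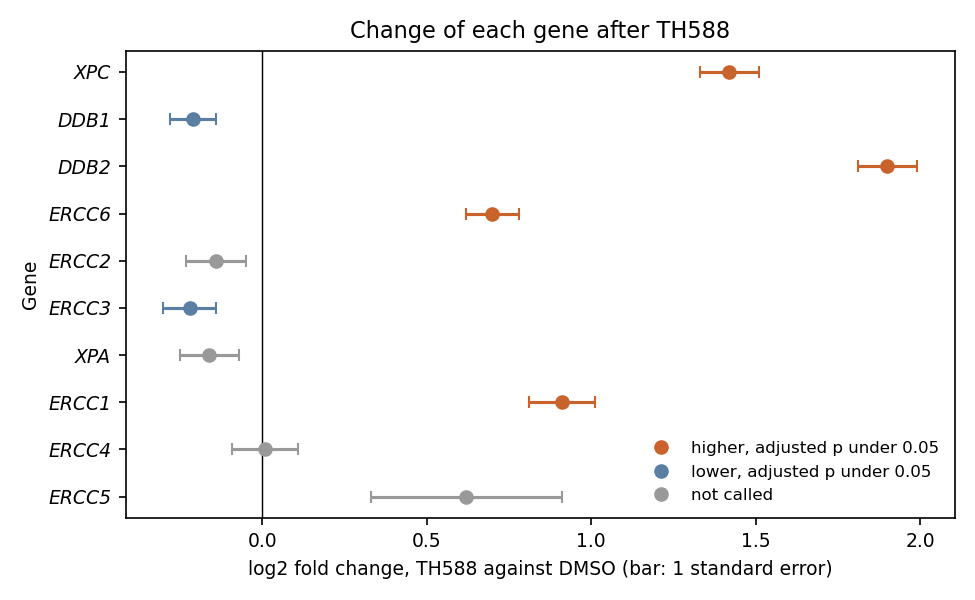
Log2 fold change of each gene, TH588 against DMSO, with bars of 1 standard error; orange marks genes called higher, blue called lower and grey not called. *DDB2* (1.90), *XPC* (1.42), *ERCC1* (0.91) and *ERCC6* (0.70) stand to the right, *DDB1* and *ERCC3* lie just left of 0, and *ERCC5* has the widest bar.

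Levels of different genes were set side by side as CPM per kilobase of exon sequence. With DMSO the order of mean levels was *DDB1* (33.0 CPM per kilobase), *ERCC2* (24.4), *ERCC3* (17.2), *XPA* (13.6), *ERCC1* (11.6), *DDB2* (7.89), *XPC* (6.16), *ERCC4* (2.02), *ERCC6* (1.81) and *ERCC5* (0.0716). Only *ERCC4* and *ERCC6* had overlapping ranges among neighbours in this order. The length includes bases shared with other genes, 63.2% in *ERCC5*, 30.4% in *XPC*, 28.6% in *ERCC1*, 25.7% in *ERCC4*, 8.3% in *ERCC2* and 3.7% in *DDB1*. The other genes share none. How reads in shared exons were counted is not stated, so the places of the genes with shared bases are uncertain. Reads left uncounted may put *ERCC5* too low, which was not tested. The length also sums the exons of all annotated transcripts, 13950 bases in *DDB1*, 16737 in *ERCC6* and 4897 in *DDB2*. Which transcripts the cells make was not tested, and every place in the order depends on this length. Before division by length, the means with TH588 were 398 CPM for *DDB1* and 145 CPM for *DDB2*. With TH588 *DDB2* moved from the sixth place to the first, at 29.5 ± 1.68 CPM per kilobase (SD, n = 3), where its range overlapped that of *DDB1* at 28.5 ± 0.963. *ERCC1* reached 21.7 CPM per kilobase beside *ERCC2* at 22.2, and *XPC* reached 16.4 beside *ERCC3* at 14.7, both pairs with overlapping ranges. *ERCC6*, at 2.95 CPM per kilobase, lay above *ERCC4*, at 2.04, without overlap.

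**Figure D3:**
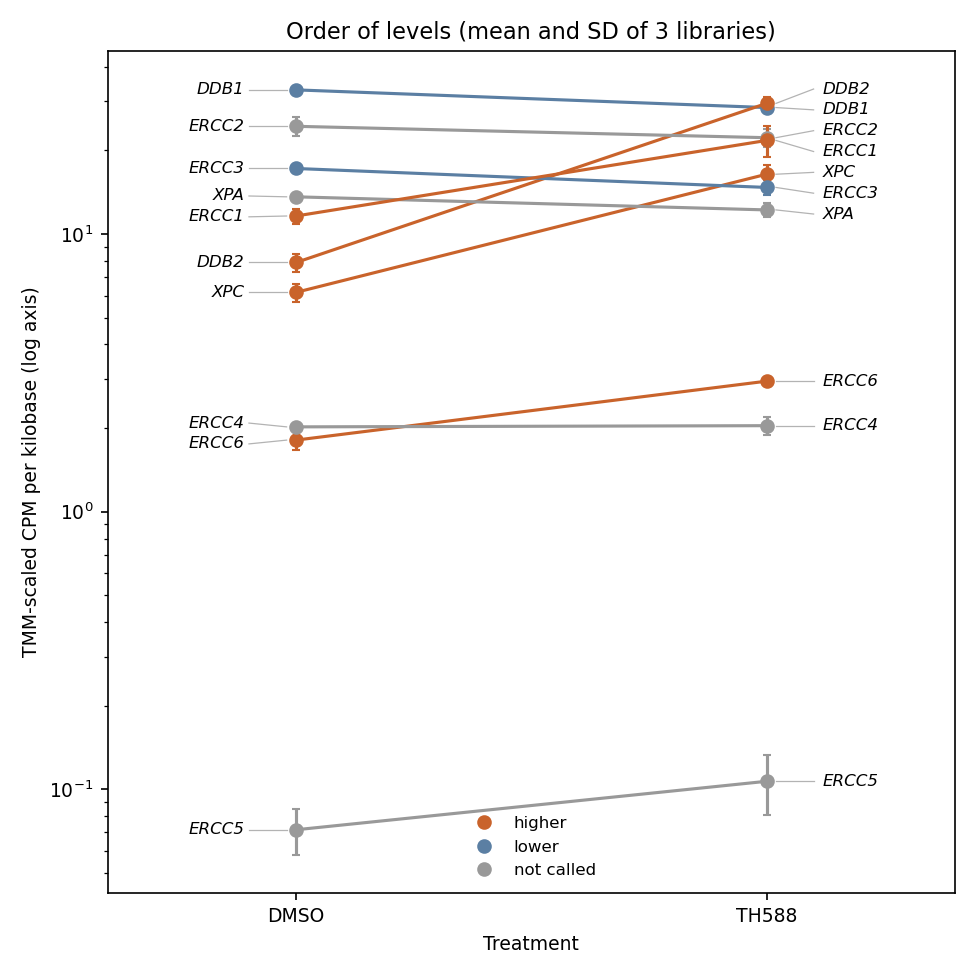
Mean level of each gene in CPM per kilobase (log axis) with DMSO on the left and TH588 on the right, with bars of 1 SD over 3 libraries and colors by call. *DDB2* crosses from 7.89 to 29.5 and meets *DDB1*, and *XPC* crosses *XPA* and *ERCC3*. Exon bases shared with other genes, and the exons of all annotated transcripts, are part of the length.

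Ratios of partner genes within a library do not depend on how libraries are scaled, so 5 partner pairs were compared as counts per kilobase. *DDB2* per *DDB1* was 0.230, 0.261 and 0.225 with DMSO and 1.07, 0.944 and 1.1 with TH588. The log2 ratio of this pair rose by 2.12 (SD 0.12 in each group), from a geometric mean of 0.238 to one of 1.04. The size of each ratio depends on the annotated lengths, while its change between the groups does not. *XPC* per *RAD23B*, its stabilizing partner, was 0.152, 0.128 and 0.128 with DMSO and 0.5, 0.652 and 0.518 with TH588, in the same order of replicates. Here *XPC* rose and *RAD23B* fell, from 209 ± 6.76 to 137 ± 8.68 CPM (SD, n = 3 each), and the log2 ratio rose by 2.02.

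The transcription-coupled pair, *ERCC6* per *ERCC8*, went from 0.319, 0.269 and 0.251 with DMSO to 0.503, 0.717 and 0.607 with TH588, a log2 difference of 1.11. In the 5′ nuclease the gene that rose, *ERCC1*, is the divisor, so the ratio fell, while *ERCC4* did not pass the test. *ERCC4* per *ERCC1* went from 0.166, 0.191 and 0.169 with DMSO to 0.102, 0.0762 and 0.108 with TH588, a log2 difference of -0.89. The TFIIH pair *ERCC2* per *ERCC3* overlapped between the groups, with a geometric mean of 1.42 with DMSO and 1.5 with TH588. By an exact two-sided permutation test the TFIIH pair gave p = 0.4, and each of the other 4 pairs p = 0.1, the smallest that 3 libraries against 3 allow. Over 5 pairs the adjusted values were 0.4 and 0.125 by this exact test, so none could reach the threshold of 0.05. That 4 of the 5 ratios did not overlap between the groups is the same result and not further evidence. In CPM, the groups also did not overlap in 57.7% of all genes tested. How often ratios of other gene pairs separate was not tested. Exons of other genes cover 30% of the exon bases of *ERCC8* and 25.7% of those of *ERCC4*.

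**Figure D4:**
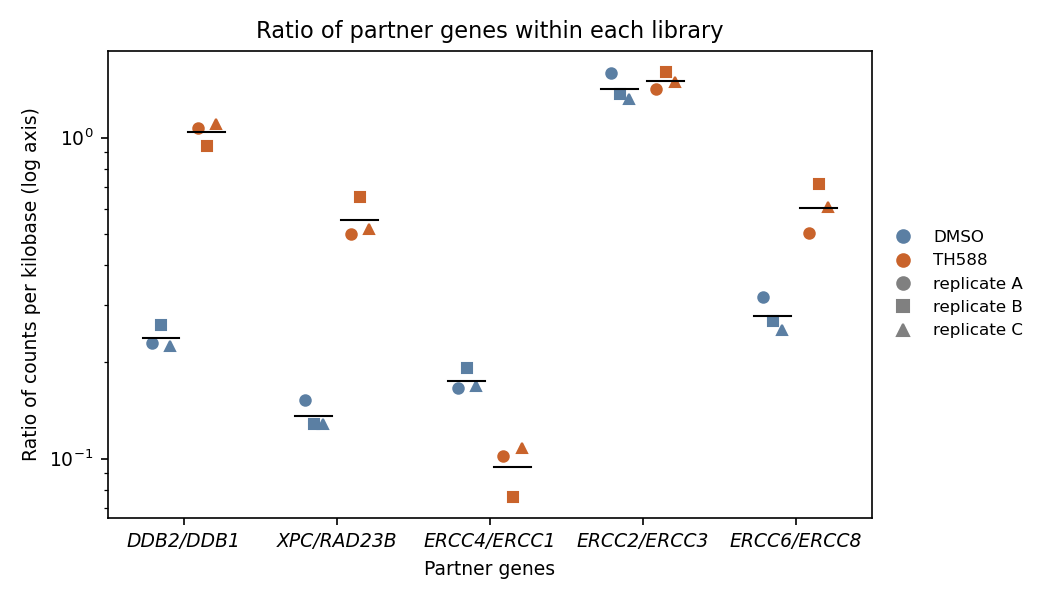
Ratio of counts per kilobase of 5 partner pairs (log axis) in each library, DMSO in blue and TH588 in orange, with a marker shape per replicate and a black line at the geometric mean. *DDB2*/*DDB1* rises from 0.238 to 1.04 and *XPC*/*RAD23B* from 0.136 to 0.553, *ERCC4*/*ERCC1* falls, and *ERCC2*/*ERCC3* overlaps.

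The other genes of the pathway were taken from a list of 43 written from general knowledge, also with earlier results of these data known. Of these, 25 fell and 3 rose by the same test, against 25.3% lower and 24.2% higher among all genes tested, with a median log2 fold change of -0.41. Among 6 partners in damage recognition, *RAD23B* (log2 fold change -0.61), *RBX1* (-0.38) and *CUL4A* (-0.22) fell and *CUL4B* (0.43) rose; *RBX1*, *CUL4A* and *CUL4B* encode the ring and scaffolds of the ubiquitin ligase that DDB1 serves. The fall of *CUL4A* lost significance under 9 of 15 alternative settings, among them library size only and without any single library other than TH588 replicate A (lowest -0.24 and highest -0.12 over all 15).

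In transcription-coupled recognition, where *ERCC6* rose, 5 of the 8 genes of this wider list fell, against 25.3% of all genes tested. The other 3 did not pass the test. The largest falls were those of the nucleosome-binding protein gene *HMGN1* (-0.75), the deubiquitinase gene *USP7* (-0.65) and the elongation factor gene *ELOF1* (-0.65). *ERCC8* fell from 35.4 ± 1.85 to 26.9 ± 4.72 CPM (SD, n = 3 each; log2 fold change -0.41, edgeR adjusted p = 0.0121), a call lost without DMSO replicate C. *HMGN1* has processed pseudogenes, and its value is uncertain for that reason. Without TH588 replicate A, *UVSSA* (0.32, edgeR adjusted p = 0.0162) and *STK19* (0.39, adjusted p = 0.0395) also passed the threshold as higher, so that 5 genes of the list of 43 rose in place of 3.

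Of the other 8 genes of TFIIH, 1 fell, against 25.3% of all genes tested. The remaining 7 did not pass the test, and the median of the 8 was -0.09. The gene that fell, *GTF2H2* (-0.52), has near-identical copies on chromosome 5, so its counts are uncertain. Of the RPA genes, whose products coat the opened strand, *RPA2* (-0.95) and *RPA1* (-0.55) fell and *RPA3* (-0.25, edgeR adjusted p = 0.0582) did not pass.

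The lowest median was that of gap filling and ligation, a list that holds the replicative polymerases with their clamp and clamp loader, and also repair and translesion factors such as *LIG3*, *XRCC1* and *POLK*. Of 18 genes, 14 fell, against 25.3% of all genes tested, 2 rose, against 24.2%, and 2 did not pass. The median was -0.80 on the log2 scale. The falls ranged from -0.50 to -1.48, and the largest were those of *POLE2* (-1.48) and *POLD3* (-1.47), subunits of the replicative polymerases, and *RFC2* (-1.36), a subunit of the loader of the PCNA clamp. *POLE2* fell from 37.9 ± 1.72 to 13.5 ± 0.0149 CPM (SD, n = 3 each). *POLD4*, an accessory subunit of polymerase delta, rose (1.96) but was scarce, from 0.338 ± 0.165 to 1.32 ± 0.267 CPM (SD, n = 3 each), and 21.3% of its exon bases are shared with another gene. The rise of the ligase gene *LIG3* (0.20, edgeR adjusted p = 0.0425) was lost under 9 of 15 alternative settings, among them DESeq2, the replicate block and any single library left out other than TH588 replicate A.

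**Figure D5:**
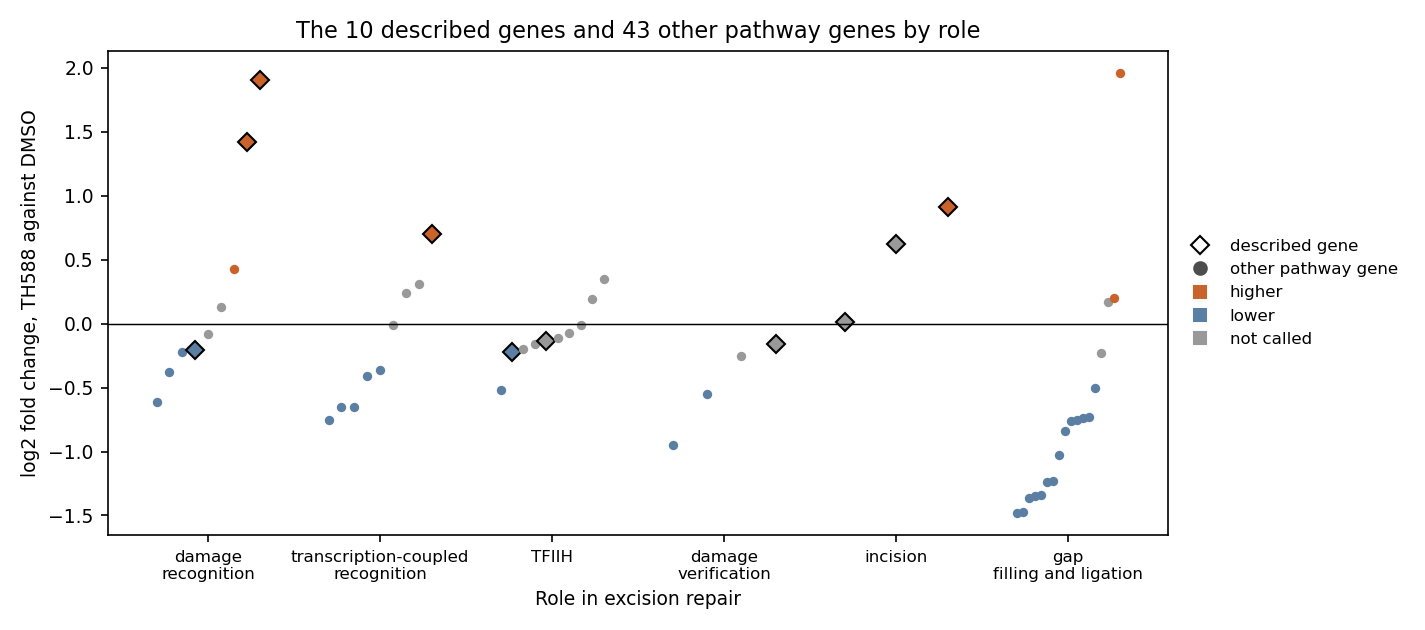
Log2 fold change of the 10 genes (diamonds) and of 43 other pathway genes (circles) by role, colored by call at an adjusted p under 0.05. Of the 10, *DDB2*, *XPC*, *ERCC1* and *ERCC6*, and *ERCC5* without a call, lie above 0.5, and of the 43, the scarce *POLD4* (1.96). In gap filling and ligation, 14 of 18 genes lie at -0.50 or lower.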

How the data were processed

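RNA of A2780 cells given DMSO or TH588 was sequenced from polyA TruSeq libraries. Per the labels and the supplementary methods, the authors aligned reads to GRCh38 with TopHat and counted them per gene with featureCounts 1.4.6, and they deposited raw counts for 6 libraries. Rules for strand and for reads shared by genes are not given in the sources used here. Of 58336 genes, 57754 were matched to a symbol by Ensembl identifier.

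Counts were compared with edgeR 4.0.16 in R 4.3.3 by the quasi-likelihood test after TMM normalization and the default filter, which left 15844 genes, at a Benjamini-Hochberg adjusted p under 0.05 over all of them. Standard errors are the log2 fold change over the square root of F. The procedure was tested on simulated counts. Replicates differed by more than sampling noise (chi-square per degree of freedom 25 to 176). This value was summed over genes on raw counts, so abundant genes such as *SNORD3A* weigh most. It does not give the spread of a typical gene.

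Alternatives were DESeq2 size factors, library size only, removal of the 10 most abundant genes, DESeq2 1.42.0, limma-voom (limma 3.58.1), no filter on low counts, a minimum of 10 counts per library, an adjusted p under 0.01, each library left out, and the replicate letter as a block. The 10 genes and the lists were chosen with earlier results of these data known. Named genes are all 10, the partners *RAD23B* and *ERCC8*, and the 3 largest called rises and falls of the wider list in each role. Genes that share exons with the 10, *UVSSA*, *STK19*, *RPA3*, *XRCC1*, *POLK* and the markers named were added after their values were seen.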

Additional observations from a re-analysis of the deposited data

How the results depend on the processing

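The 4 rises among the 10 genes (*DDB2*, *XPC*, *ERCC1* and *ERCC6*) passed the threshold under all 15 alternative settings. The 2 falls, *DDB1* and *ERCC3*, were both called with DESeq2 size factors, without the 10 most abundant genes, with DESeq2, with limma-voom and with at least 10 counts per library, but 0 of the 10 were called lower with library size only, with no filter, with the replicate block and at an adjusted p under 0.01, and 0 to 2 when 1 library at a time was left out (2 without TH588 replicate A). Their estimates stayed below 0 throughout, from -0.23 to -0.11 for *DDB1* and from -0.25 to -0.12 for *ERCC3*. With library size only, the median of the 10 moved to 0.429 from 0.314 and that of all genes to 0.126 from 0.019, and the cause was not tested. With 1 library left out, the log2 fold change of *ERCC4* ran from -0.03 without TH588 replicate C, a change of sign, to 0.07 without TH588 replicate B. It was 0.12 with library size only, and the gene was called in no fit. Of the other pathway genes, 2 to 5 were called higher with 1 library left out, 5 of them without TH588 replicate A. Without division by length, 5 of the 10 genes kept their place in the order of levels with DMSO. Up to 1 mismatch to the half-site gave 8 genes with a match in place of 1. A DMSO and a TH588 library of one letter, each taken as its deviation from its group's mean, had correlations of -0.17 (A), -0.20 (B) and -0.01 (C). These values show no sign that the letter pairs the libraries, but with so few libraries they cannot exclude pairing. The replicate letter as a block gave 7195 called genes in place of 7852, of which 7129 were called in both, and 4 of the 10 and 26 of the 43. The 5 partner ratios kept their direction with any 1 library left out. A count of 0 allows up to 3 counts, 0.105 CPM in TH588 replicate A and 0.0303 to 0.0386 CPM in the other libraries, for counting error only. The lowest counts in a library among the pathway genes named were 17 for *ERCC5* and 13 for *POLD4*.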
